A study of Rattus norvegicus with 4 samples.

Results

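The 9 genes of the GABA pathway described here were measured in the hippocampus of aged stressed rats: the decarboxylases Gad1 and Gad2, the vesicular transporter Slc32a1, the plasma membrane transporters Slc6a11 and Slc6a13, the degrading enzymes Abat and Aldh5a1, and the chloride cotransporters Slc12a5 and Slc12a2. Members were all probe sets to which the platform annotation gave exactly 1 gene symbol, one of these 9, which yielded 14 of the 31042 probe sets other than Affymetrix controls. The arrays carried total RNA of whole hippocampi from male Wistar rats. The stressed group underwent 4 weeks of chronic unpredictable mild stress, a changing series of mild stressors, from 15 months of age and was dissected at 16 months. The control group was of the same strain, sex and age, was housed under standard conditions with free food and water, and received no stress. Each group had 2 arrays, each with RNA pooled from 3 rats, so that the spread between arrays is one between pools and not between single rats. No array of the series carried RNA of the captopril-treated rats of the study.

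GABA is the main inhibitory transmitter of the hippocampus and is released by local interneurons. It is made from glutamate by 2 decarboxylases, packed into synaptic vesicles, taken back up by neurons and astrocytes, and broken down in mitochondria to succinate. Whether GABA hyperpolarises a neuron depends on intracellular chloride, which the cotransporter encoded by Slc12a5 exports and the one encoded by Slc12a2 imports.

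Of the 9 genes 5 had a probe set that changed in stressed rats, in both directions. Gad2 and Slc32a1 fell, Aldh5a1, Slc12a5 and Slc12a2 rose at 1 probe set each, and Gad1 and Abat did not pass the test. Slc6a11 and Slc6a13 were too dim to be tested. A probe set was tested when 2 or more of the 4 arrays gave a signal of 100 or higher. This held for 14791 probe sets and for 8 of the 14 member probe sets, which covered 7 of the 9 genes. At a Benjamini-Hochberg adjusted p under 0.05 from limma, which compares log2 signals and shares the spread over probe sets, 3 of the 8 rose and 2 fell, with a median log2 fold change of 0.08. Of all tested probe sets, 12.0% rose and 11.8% fell, 23.8% together, with a median log2 fold change of 0.02. The 2 groups did not overlap at 6 of the 8 member probe sets and at 64.4% of all tested probe sets. At 2-fold or more with an unadjusted p under 0.05 from limma, Gad2 was lower and no other member was called. Among all tested probe sets, 1.38% were lower and 0.216% higher at these thresholds. The methods used the same thresholds with an unpaired t-test. The exact permutation test of a single value could not give a two-sided p under 0.333 with 2 arrays against 2.

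**Figure D1:**
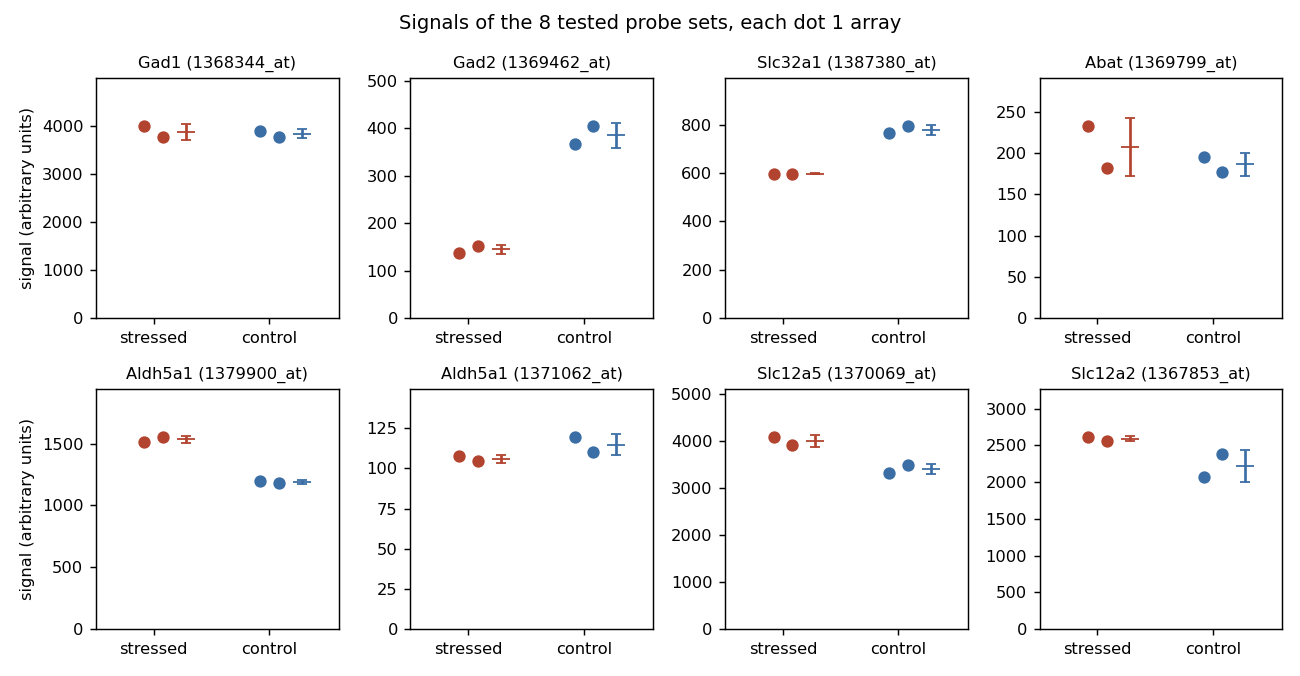
Signal on a linear scale (arbitrary units, from 0) of the 8 tested probe sets on each of the 2 stressed arrays (red, left) and 2 control arrays (blue, right), with the mean and SD of each group as a bar beside the dots. Gad2 and Slc32a1 are lower on both stressed arrays, the 1379900_at probe set of Aldh5a1, Slc12a5 and Slc12a2 are higher on both, and the dots of Gad1 and Abat overlap between the groups.

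The overall signal was alike on the 4 arrays. Between 46.4% and 46.8% of the probe sets reached a signal of 100 on each array, and the median signals were 79.9 and 82.1 in stressed rats and 80.5 and 79.3 in controls. Log2 signals correlated with r = 0.993 between the stressed arrays, 0.994 between the control arrays and 0.972 to 0.974 between the groups, computed across tested probe sets, so that its points are genes and not replicates. Of 16 markers of hippocampal excitatory neurons 14 were tested, with 2 higher and 3 lower in stressed rats at adjusted p under 0.05 from limma. When the spread in limma was not allowed to follow intensity, 1 was called in each direction. No other tissue was compared, so that these values do not check the labelled tissue. The signals of these 14 genes summed to 22168.1 and 22510.0 in stressed rats and to 22927.3 and 23295.5 in controls.

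The promoters of Gad2 and Slc32a1, the members that fell, are shown with that of Gad1, the other decarboxylase gene, to set side by side the sequences before their starts. The sequences are from RefSeq for the assembly GRCr8, all on the plus strand, and end at the base before the first annotated start. Gad2 lies on chromosome 17 from 89671718 to 89734246 and its stretch at chr17:89671468-89671717. Slc32a1 lies on chromosome 3 from 167687245 to 167691714 and its stretch at chr3:167686995-167687244. Gad1 lies on chromosome 3 from 75777260 to 75818099, and 58 bases at chr3:75777202-75777259 are given because its other annotated starts lie inside the gene. Capitals mark matches, on either strand, to the GC box GGGCGG, the CCAAT box CCAAT, the TATA box TATAAA and the glucocorticoid receptor hexamer AGAACA.
Gad2: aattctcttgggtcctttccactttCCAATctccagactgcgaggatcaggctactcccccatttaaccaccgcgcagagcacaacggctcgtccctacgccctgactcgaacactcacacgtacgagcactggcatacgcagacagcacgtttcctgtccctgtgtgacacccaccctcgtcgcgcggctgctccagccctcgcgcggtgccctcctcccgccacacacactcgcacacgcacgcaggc
Slc32a1: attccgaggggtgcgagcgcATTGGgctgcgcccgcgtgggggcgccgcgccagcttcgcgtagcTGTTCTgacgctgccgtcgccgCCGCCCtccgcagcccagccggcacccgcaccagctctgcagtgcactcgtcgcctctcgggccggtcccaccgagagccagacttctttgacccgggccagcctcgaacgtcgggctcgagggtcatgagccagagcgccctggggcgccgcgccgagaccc
Gad1: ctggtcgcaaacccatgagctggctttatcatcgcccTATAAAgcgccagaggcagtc

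Of the 9 genes 7 matched a promoter in the RefSeq table, and the motifs, chosen after the signals were seen, were searched on both strands in the 250 bases before the start given there. The Gad2 stretch held 1 CCAAT match, 225 bases before the start, and none of the other motifs. That of Slc32a1 held 1 CCAAT match, 1 GC box and 1 glucocorticoid receptor hexamer. CCAAT occurred in 3 of the 7 member promoters and in 34% of all 33469 promoters, GGGCGG in 5 of 7 and in 30.5%, and AGAACA in 1 of 7 and in 17.5%. The GGGCGG match of Gad1 lay past its first annotated start, in the part of its window that is not printed. TATAAA was found in Gad1 alone of the 7, starting 21 bases before its first annotated start, and in 12.9% of all promoters. The cAMP element TGACGTCA occurred in no member window and in 1.59% of all promoters. Gad2 and Slc32a1 shared the CCAAT match with Slc12a5, which rose.

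The 2 decarboxylase genes differed in their change under stress. Gad2 encodes the form enriched at nerve terminals, which cycles between an active and a cofactor-free state, and Gad1 the form that is spread through the cell body and supplies much of the basal GABA. Gad2, measured by 1 probe set, had signals of 138.1 and 151.7 in stressed rats and 366.4 and 404.4 in nonstressed controls. Both stressed arrays were far under both control arrays, and the difference was larger than the spread between replicates. The signal fell by 62.4% in stressed rats, a log2 fold change of -1.41 (95% interval -1.66 to -1.16, adjusted p = 1.69e-04 from limma). Of the 14791 tested probe sets 85 had a lower log2 fold change than Gad2. The study itself singled out Gad2 on these arrays, so that its fall is not independent evidence. The study also reported lower hippocampal Gad enzyme activity in stressed rats, which is not a measure of this transcript. Its immunoblot of the Gad2 protein compared stressed rats with and without captopril. From it the study reported that captopril opposed the loss of this protein under stress.

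Gad1 was bright on every array at its 1368344_at probe set. Its signals were 3985.9 and 3755.5 in stressed rats and 3898.3 and 3770.4 in controls, and the groups overlapped. The log2 fold change was 0.01 with a 95% interval from -0.10 to 0.13, which bounds a change of this probe set to between 0.934 and 1.09 of the control signal (adjusted p = 0.866 from limma). The other Gad1 probe set, 1370760_a_at, was not tested, with signals of 23.8 and 28.0 in stressed rats and 11.3 and 29.2 in controls.

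Because any factor that scales a whole array cancels in a ratio of 2 probe sets on that array, the change of the Gad2 to Gad1 ratio was computed as well. The log2 ratio was -4.85 and -4.63 on the stressed arrays and -3.41 and -3.22 on the control arrays. It changed by -1.42 in stressed rats, without overlap between the groups (exact permutation p = 0.333, two-sided, the smallest the design allows). The ratio shows unequal change of the 2 probe sets and says nothing on which transcript was more abundant.

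Slc32a1, which encodes the transporter that loads GABA and glycine into synaptic vesicles, fell by a smaller amount. Its only probe set had signals of 598.0 and 595.1 in stressed rats and 764.4 and 793.1 in controls. The stressed arrays differed from each other by less than the control arrays did, and the groups did not overlap. The log2 fold change was -0.38 (95% interval -0.52 to -0.25, adjusted p = 0.0036 from limma), so that the signal fell by 23.4%. Against Gad1 on the same array, the log2 ratio of Slc32a1 was -2.74 and -2.66 in stressed rats and -2.35 and -2.25 in controls, a change of -0.40 (exact permutation p = 0.333, two-sided). The 95% intervals of Gad2 and Slc32a1 did not overlap, and Gad1, also a gene of GABAergic cells, had an interval that overlapped neither.

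Other markers of interneurons were set beside these results, since in a whole hippocampus fewer interneurons and less transcript per interneuron cannot be told apart. Of 26 markers listed without the members, 15 were tested, of which limma placed 4 lower and none higher at adjusted p under 0.05, with a median log2 fold change of -0.15. The share called was 26.7%, close to the 23.8% of all tested probe sets. At an unadjusted p under 0.05, 6 were lower and none higher. The lowest p-values were those of the neuropeptide genes Npy, Penk and Cck, with log2 fold changes of -0.38, -0.42 and -0.24. In RNA of whole hippocampus, transcript of the listed genes from cells other than interneurons was not separated. The signals of the 15 markers summed to 12388.7 and 12905.8 in stressed rats and to 13840.2 and 14592.0 in controls. Their lowest signal was 77.9, so that no tested marker was at 0. Sst, Pvalb and Vip, named after their values were seen as markers of the main interneuron classes, had log2 fold changes of -0.09, -0.21 and -0.10 and did not pass the test. Reln, Maf and Kcnc1, also named after their values were seen, lay above 0 at 0.16, 0.02 and 0.07. They did not pass the test either. The log2 fold change of Gad2 was further below 0 than that of each of the 15 markers, a difference that was not tested. That of Slc32a1, at -0.38, lay within the range of the 15, close to Npy. Penk and Npas1 (-0.50, named after its value was seen, not past the test) were further below 0. The part of interneuron number in the changes of Gad2 and Slc32a1 was not tested. Without stressed replicate 2 or without control replicate 2, 2 of the 15 markers fell in place of 4.

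**Figure D2:**
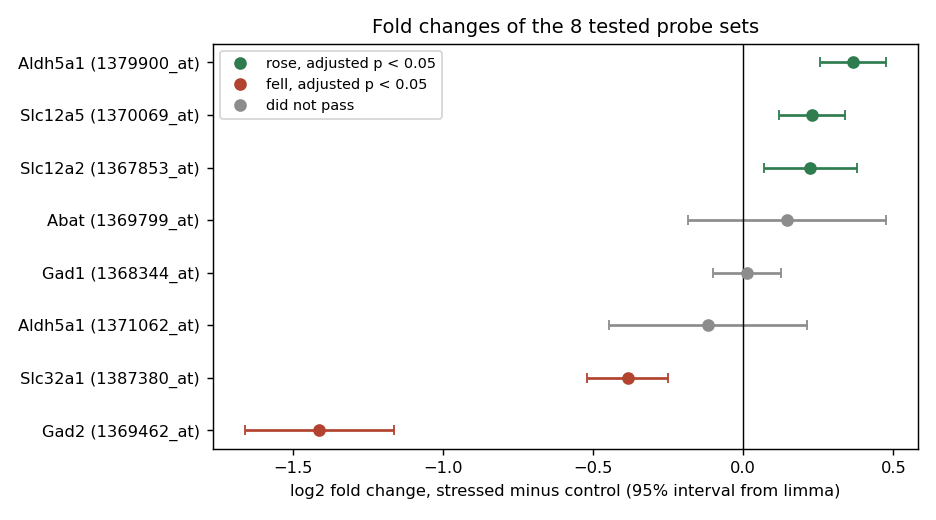
Log2 fold change (stressed minus control, x axis) of each tested probe set with its 95% interval from limma, ordered by size. Gad2 at -1.41 stands apart from the other 7, which lie between -0.38 and 0.37.

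The plasma membrane transporters could not be compared at these signals. Slc6a11 encodes GAT-3, the transporter of astrocyte processes, and Slc6a13 encodes GAT-2, which in brain is found mainly in meninges and blood vessels. The only probe set of Slc6a11 had signals of 18.3 and 7.0 in stressed rats and 6.1 and 10.6 in controls. That of Slc6a13 had signals of 57.4 and 43.7 in stressed rats and 72.7 and 49.2 in controls. Both were under the minimum of 100 on all 4 arrays, and both overlapped between the groups. When all 31042 probe sets were tested, the log2 fold changes were 0.49 ± 0.77 for Slc6a11 and -0.26 ± 0.29 for Slc6a13 (± standard error, adjusted p = 0.764 and 0.671 from limma).

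Markers of the cells that carry these transporters were measured. Of 17 astrocyte markers 15 were tested, of which 2 rose, 1 fell and 12 did not pass. The share called was 20%, against 23.8% of all tested probe sets. The median was 0.05 on the log2 scale. Their signals summed to 63999.1 and 65730.9 in stressed rats and to 58203.7 and 60213.9 in controls. Among the 15 markers the glutamate transporter gene Slc1a3 rose by 0.37, the bicarbonate transporter gene Slc4a4 rose by 0.37 and the growth factor receptor gene Fgfr3 fell by 0.38. At an unadjusted p under 0.05, 6 astrocyte markers were higher and 2 lower. With quantile normalization 4 rose, with a crossed replicate block 6 rose, and without stressed replicate 2, 2 fell in place of 1. The lowest signal of a tested astrocyte marker was 124. Of 18 markers of meninges and fibroblasts 15 were tested, of which 9 fell and 2 rose, with a median of -0.44. Their signals summed to 11746.2 and 12069.8 in stressed rats and to 14410.8 and 14594.4 in controls. Among them Dcn, which encodes the matrix proteoglycan decorin, fell by 0.70 and the prostaglandin synthase gene Ptgds fell by 0.44, while Igfbp2 rose by 0.41. With control replicate 1 or control replicate 2 left out, 5 of these markers fell. The lowest signal was 72.8. The part of meninges in the values of Slc6a13 was not tested.

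**Figure D3:**
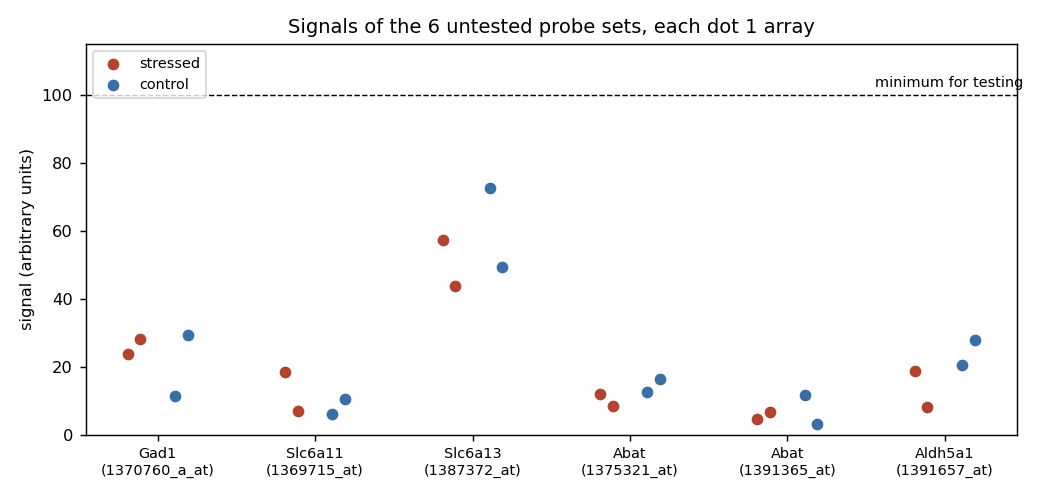
Signal on a linear scale (arbitrary units) of the 6 member probe sets that were not tested, with the 2 stressed arrays (red) left of the 2 control arrays (blue). All dots lie between 3.1 and 72.7, under the dashed line at 100.

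The enzymes of GABA breakdown were represented by 3 probe sets each, most of them dim. Abat encodes GABA transaminase, which moves the amino group of GABA to 2-oxoglutarate, and Aldh5a1 encodes succinic semialdehyde dehydrogenase, which completes the path to succinate. The 1379900_at probe set of Aldh5a1 had signals of 1516.4 and 1553.6 in stressed rats and 1201.7 and 1178.9 in controls. Both stressed arrays were higher, and the difference was larger than the spread between replicates. It rose by a log2 fold change of 0.37 (95% interval 0.26 to 0.48, adjusted p = 0.00181 from limma), or 29.0%.

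The other probe sets of Aldh5a1 did not show this rise. The 1371062_at probe set was just over the minimum, with 107.5 and 104.3 in stressed rats and 119.5 and 110.2 in controls. The stressed arrays were lower without overlap, but the log2 fold change of -0.12 did not pass the test (95% interval -0.45 to 0.21, adjusted p = 0.591 from limma). The intervals of the 2 probe sets did not overlap. The third probe set, 1391657_at, was not tested, with signals of 18.8 and 8.0 in stressed rats and 20.5 and 27.7 in controls, which did not overlap. The direction of Aldh5a1 thus rests on its brightest probe set.

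Abat was tested at its 1369799_at probe set, with signals of 232.0 and 182.2 in stressed rats and 195.5 and 176.5 in controls. One stressed array was the highest of the 4, and the other lay between the controls. The log2 fold change was 0.15 (95% interval -0.18 to 0.48, adjusted p = 0.492 from limma), and without stressed replicate 1 it was -0.03. The other probe sets of Abat were not tested. The signals of 1375321_at were 11.9 and 8.5 in stressed rats and 12.5 and 16.5 in controls, and those of 1391365_at were 4.7 and 6.6 in stressed rats and 11.6 and 3.1 in controls. Of the 6 untested member probe sets 4 overlapped between the groups, and none passed an adjusted or an unadjusted p under 0.05 from limma when all probe sets were tested.

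Both chloride cotransporter genes were slightly higher in stressed rats. Slc12a5 encodes KCC2, the neuronal exporter of chloride, and Slc12a2 encodes NKCC1, an importer found in glia, in oligodendrocyte precursors, in some neurons and at high level in choroid plexus. Slc12a5 had signals of 4087.7 and 3916.0 in stressed rats and 3331.9 and 3491.0 in controls, with no overlap. It rose by a log2 fold change of 0.23 (95% interval 0.12 to 0.34, adjusted p = 0.0122 from limma), or 17.3%. The call was lost without stressed replicate 1 (0.20, adjusted p = 0.0675 from limma), without control replicate 1 (0.20, adjusted p = 0.0836 from limma) and without an intensity trend (adjusted p = 0.0831 from limma).

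Slc12a2 was the member nearest to the threshold. Its signals were 2614.2 and 2566.9 in stressed rats and 2068.9 and 2378.7 in controls, and the 2 controls lay further apart than the stressed arrays. It rose by a log2 fold change of 0.22 (95% interval 0.07 to 0.38, adjusted p = 0.0462 from limma), or 16.8%. The call was lost without stressed replicate 1 (adjusted p = 0.127 from limma), stressed replicate 2 (0.0917) or control replicate 1 (0.196, with a log2 fold change of 0.12), after median centring (0.071), without an intensity trend (0.153), with no filter on dim probe sets (0.101) and with the replicate number as a block (0.0703).

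The ratio of importer to exporter overlapped between the groups. The log2 ratio of Slc12a2 to Slc12a5 was -0.64 and -0.61 in stressed rats and -0.69 and -0.55 in controls. The stressed values lay between the control values, with a change of -0.0067 (exact permutation p = 1.0, two-sided), whose sign turned without stressed replicate 1 or control replicate 2. This does not show that the 2 genes changed alike, since the control ratios spanned a wider range than the change.

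Markers of choroid plexus, a tissue in which Slc12a2 is abundant, were higher in stressed rats. Of 21 choroid plexus markers 13 were tested, and limma at adjusted p under 0.05 had 9 of these rise and none fall, with a median log2 fold change of 0.75. At an unadjusted p under 0.05, 10 were higher and none lower. Sostdc1, which encodes an inhibitor of BMP and Wnt signals, rose by 0.88, coagulation factor gene F5 by 1.17 and Enpp2, which encodes autotaxin, by 0.34. The signals of the 13 markers summed to 20587.0 and 21728.6 in stressed rats and to 15738.8 and 17562.2 in controls, and the lowest was 55.4. Ttr, the transthyretin gene and the brightest of them, a name added once the values were known, had signals of 12992.4 and 11938.5 in stressed rats and 9449.9 and 11337.7 in controls. Its log2 fold change of 0.27 did not pass the test (adjusted p = 0.0579 from limma), and it gave the largest part of these sums. The part of choroid plexus in the value of Slc12a2 was not tested.

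Markers of oligodendrocytes and of endothelial cells were counted as well. Of 11 tested oligodendrocyte markers 2 rose and 2 fell, with a median of -0.05. Ugt8, a galactolipid synthase gene of myelin, fell by 0.62, the myelin factor gene Myrf rose by 0.26 and Cnp fell by 0.25. None of these markers rose with control replicate 1 or 2 left out, where 1 fell, and 1 rose with stressed replicate 1 or 2 left out. Of 11 tested endothelial markers limma called 5 higher and none lower at adjusted p under 0.05, with 6 higher and none lower at an unadjusted p under 0.05 and a median of 0.31. Slco1a4 rose by 0.33, the glucose transporter gene Slc2a1 by 0.32 and the VEGF receptor gene Flt1 by 0.87. The number that rose was 3 without stressed replicate 2 or control replicate 1 and 2 without control replicate 2.

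**Figure D4:**
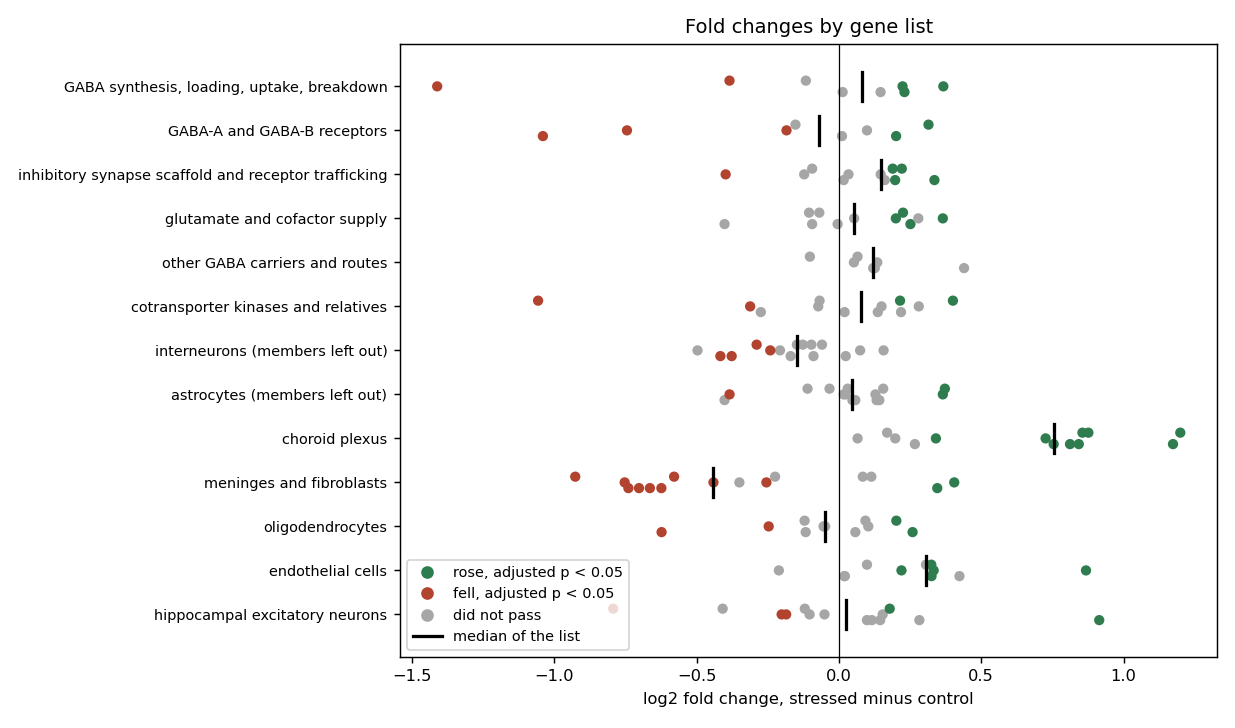
Log2 fold change (stressed minus control, x axis) of each tested gene, 1 dot a gene at its brightest tested probe set (1 dot a probe set in the top row), by list (rows), with the median of each list as a black bar. The top row spans -1.41 to 0.37, while the choroid plexus row lies to the right with a median of 0.75 and the meninges row to the left with a median of -0.44.

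Genes that act with these members were counted at 1 probe set each, the brightest tested. For comparison with each count, 23.8% of all tested probe sets were called. Receptors sense the GABA that the pathway releases. Of 19 GABA-A and GABA-B receptor genes, 16 had a probe set and 8 were tested, of which 3 fell and 2 rose, with a median of -0.07. The GABA-A subunit gene Gabra2 had signals of 802.1 and 932.9 in stressed rats and 1744.0 and 1813.5 in controls, and a log2 fold change of -1.04 (limma, adjusted p = 1.24e-04). Gabrg1, another subunit gene, fell by 0.74, and Gabbr2, which encodes the signalling subunit of the GABA-B receptor, fell by 0.18. With no filter on dim probe sets, without an intensity trend, without stressed replicate 1 or without control replicate 2 none of these receptor genes rose, and 1 rose without control replicate 1. In each removal of 1 array 2 of them fell.

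Gephyrin-type scaffolds and trafficking proteins hold GABA-A receptors at inhibitory synapses. Of 17 genes of this scaffold and of receptor trafficking, 11 were tested, of which 4 rose and 1 fell, with a median of 0.15. The dystroglycan gene Dag1 rose by 0.34 and Plcl1, which encodes a protein that binds phosphatases and GABA-A receptors, by 0.22, whereas the trafficking adaptor gene Trak2 fell by 0.40. The rises numbered 1 without stressed replicate 1, control replicate 1 or control replicate 2, and 2 without stressed replicate 2, against 1 fall in each.

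Supply of glutamate, the substrate of both decarboxylases, was covered by 16 genes of which 11 were tested. By limma 4 rose at adjusted p under 0.05 and none fell, with 5 higher and 1 lower at an unadjusted p under 0.05 and a median of 0.05. Slc1a3 was already named among the astrocyte markers, the neuronal glutamate transporter gene Slc1a1 rose by 0.23 and Got2, the mitochondrial aspartate transaminase gene, rose by 0.20. Without stressed replicate 1 or control replicate 2 only 1 of the 11 rose, 2 rose without control replicate 1, and 1 fell without stressed replicate 2. Their signals summed to 28746.5 and 28915.3 in stressed rats and to 26177.2 and 26572.3 in controls.

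Of 10 genes of other GABA carriers and of the side routes by which GABA is formed or drained, 7 were tested, and limma called none of them in either direction at adjusted p under 0.05. At an unadjusted p under 0.05, 2 were higher and none lower, and the median was 0.12. The lowest p-values were those of Slc16a12 (0.44, adjusted p = 0.0539 from limma), Sat1, which encodes an enzyme of polyamine breakdown (0.13), and Adhfe1, which encodes an enzyme that turns gamma-hydroxybutyrate into succinic semialdehyde (0.13).

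Relatives and regulators of the cotransporters comprised 20 genes, of which 12 were tested, with 2 higher and 2 lower and a median of 0.08. Wnk1, a kinase that through its partner kinases activates NKCC1 and inhibits KCC2, had signals of 1434.4 and 1515.6 in stressed rats and 1182.4 and 1055.2 in controls. Of its 5 probe sets the brightest rose by 0.40 (adjusted p = 0.00493 from limma). Neto2, which encodes a protein that binds KCC2 and kainate receptors, fell by 1.06, and the chloride exchanger gene Clcn3 fell by 0.31. There was 1 rise in place of 2 without stressed replicate 2 or either control replicate.

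The calls of Gad2, Slc32a1 and the bright Aldh5a1 probe set kept their direction in all 15 alternative settings and their side of the threshold in 13. Both exceptions were the t-test of the methods, on log2 and on linear signals, which estimates the error from the 4 values of a single probe set. It called no member at adjusted p under 0.05, and 2 higher and 2 lower at an unadjusted p under 0.05. Gad2 ranged from -1.48 to -1.16, Slc32a1 from -0.41 to -0.36 and Aldh5a1 from 0.35 to 0.38. The calls held in 10 of the 15 settings for Slc12a5 and in 6 for Slc12a2.

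**Figure D5:**
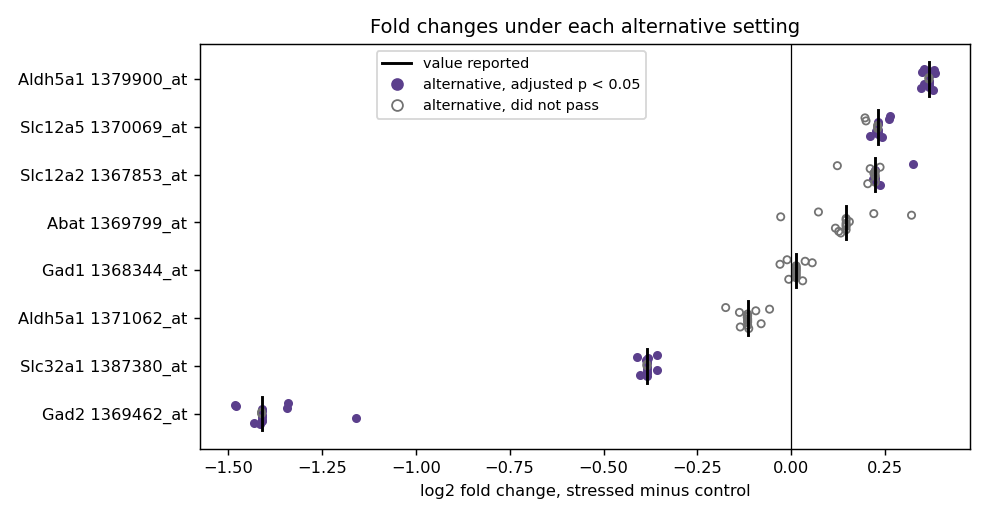
Log2 fold change (stressed minus control, x axis) of each tested probe set as reported (black bar) and under each alternative setting (dots, filled where adjusted p was under 0.05). Gad2 stays between -1.48 and -1.16, and the dots of Gad1 and Abat lie on both sides of 0.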

How the data were processed

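Total hippocampal RNA of 2 pools of stressed rats and 2 pools of controls was hybridized by the authors to the Affymetrix Rat Genome 230 2.0 array. The deposited signal intensities were made by the authors with GCOS, are on a linear scale and were scaled per array to one target value; the mean after trimming 2% of values at each end was 300.1 on every array. No further normalization was added. Detection calls were not used here.

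From these intensities log2 signals were computed, with zeros set to 0.1. The difference between the groups was fitted with limma 3.58.1 (R 4.3.3), letting the moderated spread follow intensity, and p-values were adjusted by Benjamini-Hochberg across 14791 probe sets. These passed a filter of 100 on at least 2 arrays, which stood in for the condition on calls and signals in the methods. Affymetrix controls (57 probe sets) were not tested. The comparison was tested on simulated data with known changes. One gene was annotated for 20826 probe sets, several for 436 and none for 9780; 20758 of those with 1 gene were matched by gene identifier to RefSeq (GRCr8), which was used for names, promoter sequences and gene positions, not for array coordinates. Replicate differences (replicate 1 minus 2) correlated between the groups with r = -0.11, so that the numbers were not taken as pairs. Python 3.11.15 with pandas 2.3.3 and matplotlib 3.10.9 served for tables and plots.

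Members and gene lists were chosen with earlier results of these data known. All member probe sets were named, and of each other list at most the 3 genes with the smallest p. Sst, Pvalb, Vip, Reln, Maf, Kcnc1, Npas1 and Ttr were added after their values were seen. Alternatives comprised median centring, quantile normalization, no filter or a filter at 200, an offset or floor of 50, no intensity trend, the t-test of the methods, a replicate block and each array left out; a crossed pairing and alternatives for ratios and markers were added after seeing the data. The number of arrays limits the precision.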

Additional observations from a re-analysis of the deposited data

How the results depend on the processing

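Main counts were 3 member probe sets that rose and 2 that fell, and 1771 and 1744 of all tested probe sets. At the thresholds of the methods (2-fold, unadjusted p under 0.05), with the p-value from limma, 0 members rose and 1 fell. Of all tested probe sets 32 rose and 204 fell. At adjusted p under 0.05 the methods' t-test called 0 members in either direction (2 higher and 2 lower at an unadjusted p under 0.05), with 4 rises and 14 falls overall on log2 signals and 4 and 12 on linear signals. Without an intensity trend 1 member rose and 2 fell, with 1000 rises and 1147 falls overall. Leaving out 1 array, which also lowers the power, gave 1 to 3 members that rose and 2 that fell, with 650 to 1148 rises and 791 to 1342 falls overall. With no filter 2 members rose and 2 fell (1223 and 1341 overall). With the replicate block 2 members rose and 2 fell (1281 and 1391 overall), where the call of Slc12a2 was lost and no other member call changed. The replicate differences correlated at -0.11, too weakly to show any pairing of the arrays. A crossed pairing, added after seeing the data, gave 3 members that rose and 2 that fell (2069 and 1970 of all tested probe sets). After median centring 2 members rose.

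Of 118 single-member values 94 kept direction and call, 20 lost the call and 4 changed sign. Gad1 was -0.0065 after median centring, -0.030 without stressed replicate 1 and -0.011 without control replicate 2, and ranged from -0.030 to 0.056 over single arrays left out. Abat was -0.028 without stressed replicate 1 and ranged from -0.028 to 0.32. The Slc12a2 to Slc12a5 ratio was 0.011 without stressed replicate 1 and 0.060 without control replicate 2, with a range of -0.074 to 0.060 over single arrays left out. The Gad2 to Gad1 and Slc32a1 to Gad1 ratios kept their direction in all 6 settings run. Of 384 counts of the other lists 264 stayed within 1.5 times the reported count and 120 did not, and the cause was not tested. Signals under 100, as for Slc6a11, Slc6a13 and 4 further member probe sets, limit what can be seen of those transcripts.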
